A study of Homo sapiens with 4 samples.

Results

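The circRNAs of genes that bind, splice, export and translate RNA were examined in exosomes of pancreatic cancer cells. They were taken by host name: DEAD and DEAH box helicases (DDX, DHX), RBM, SRSF, HNRNP, SF3B and PRPF splicing proteins, CPSF and CSTF 3′ end factors, CNOT and PUM repressors, XPO export receptors, XRN nucleases, EIF factors, and RARS, IARS, EPRS, LARS, QKI, MBNL1, MBNL2, DICER1 and ADAR. Only exonic, intronic and sense overlapping circRNAs with at least 1 read in the 4 libraries were kept. This left 75 circRNAs of 52 host genes, out of 9405 circRNAs with a read in all. Another 39 circRNAs of such hosts had no read in the 4 libraries, the lowest of the 75 had 2 reads in all, and 45 of the 75 fell below the minimum of 5 reads for a test. No circRNA with a read came from SRSF, SF3B, EPRS, LARS, QKI, MBNL2 or ADAR.

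The study asked how exosomal circRNAs change when pancreatic cancer cells are irradiated. Group A was not irradiated (control A1 and A2), and group B was given 10 Gy of X-rays (irradiated B1 and B2), a dose used to produce dying tumor cells. Exosomes were isolated by ultracentrifugation from medium with exosome-depleted serum. All 4 samples carry the same list of cell lines, BxPC-3, MIA PaCa-2, PANC-1 and SW1990, so the line or mixture behind each library is not resolved, nor is it stated whether replicates were separate cultures. The number of circRNAs that the study lists for its second irradiated library differs from that in the B2 values used here, so B2 may be another library than the one the study analysed. P-values measure only the spread between these samples, which may be technical.

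A circRNA arises when the spliceosome joins the end of an exon to the start of an exon that lies before it, and it is counted by reads that cross this back-splice junction. The host genes here make and use RNA themselves. Helicases unwind RNA and remodel RNA-protein complexes, many RBM and HNRNP proteins steer the choice of exons, and exportins carry cargo out of the nucleus. CCR4-NOT shortens poly(A) tails, initiation factors bring the ribosome to mRNA, and aminoacyl-tRNA synthetases load tRNAs. MBNL1 and QKI are also known for binding introns and promoting circularization. Unless stated otherwise, values are junction reads.

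The junction sequences of the circRNAs that lead the results are given first, because the bases they share show which circles of a gene reuse a splice site. Each is in the orientation of the listed strand, with the last 15 bases of the circle in lower case and its first 15 bases in capitals (GRCh37, exons from GENCODE).
RARS hsa_circ_0001550, chr5:167915607-167921655, plus strand: ggagagaataaaaagGAAGAAGAGATTAAA
RARS hsa_circ_0001551, chr5:167915607-167924353, plus strand: caggtcttttataagGAAGAAGAGATTAAA
RBM39 hsa_circ_0004870, chr20:34302107-34313077, minus strand: caagacttgcagaggAGAACCTATTGATAA
RBM39 hsa_circ_0008817, chr20:34317234-34320057, minus strand: caagagccctgtgagGAGGAAAAAAAGCAA
RBM5 hsa_circ_0001305, chr3:50145503-50145737, plus strand: catcatctgcatcagTCTCAAAGTGGTGAA
Both RARS circles start at the same exon and carry the same capitals. RARS hsa_circ_0001550 joins exon 5 to exon 2 of 15 and holds 534 nt, whereas hsa_circ_0001551 joins exon 7 to exon 2 and holds 777 nt. RBM39 hsa_circ_0004870 joins exon 11 to exon 7 of 17, and hsa_circ_0008817 joins exon 6 to exon 4. XPO1 hsa_circ_0001016 joins exon 4 to exon 3 of 25 and shares its 3′ end with hsa_circ_0001017, which joins exon 4 to exon 2.

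The libraries held 6544 (A1), 8094 (A2), 15150 (B1) and 5756 (B2) junction reads over 2052, 2485, 3492 and 1861 circRNAs, so B1 was the deepest. The control libraries stood apart in make-up over all genes. Exonic circRNAs took 0.0458% and 0.0494% of control reads against 66.5% (B1) and 35.9% (B2) of irradiated reads, and chromosome M took 22.2% and 15.1% against 0.264% and 1.25%. Of 12 epithelial and duct carcinoma genes, 1 had a circRNA read (2 reads, in B1). Of 12 blood and plasma genes, 3 had one, with 2, 2, 15 and 5 reads (A1, A2, B1, B2), and of 7 stroma genes 1 had 4 reads in B2. The part of this make-up in the values below was not tested.

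circRNAs of the RNA binding, splicing and translation hosts took 14 reads in A1, 25 in A2, 291 in B1 and 62 in B2. They made up 0.214% (95% Wilson interval 0.127 to 0.359) of A1, 0.309% (0.209 to 0.456) of A2, 1.92% (1.71 to 2.15) of B1 and 1.08% (0.841 to 1.38) of B2. Both irradiated libraries lay above both control libraries, with means of 0.261% ± 0.0671 (SD, n = 2) in control and 1.499% ± 0.597 (SD, n = 2) in irradiated exosomes. The difference of 1.24 percentage points had an exact permutation p of 0.333 (two-sided), the smallest that 2 against 2 libraries allow. Without irradiated B1 it was 0.816 percentage points. A share of junction reads is relative, and in exosome RNA a change in the number of vesicles and a change in RNA per vesicle cannot be told apart.

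**Figure D1:**
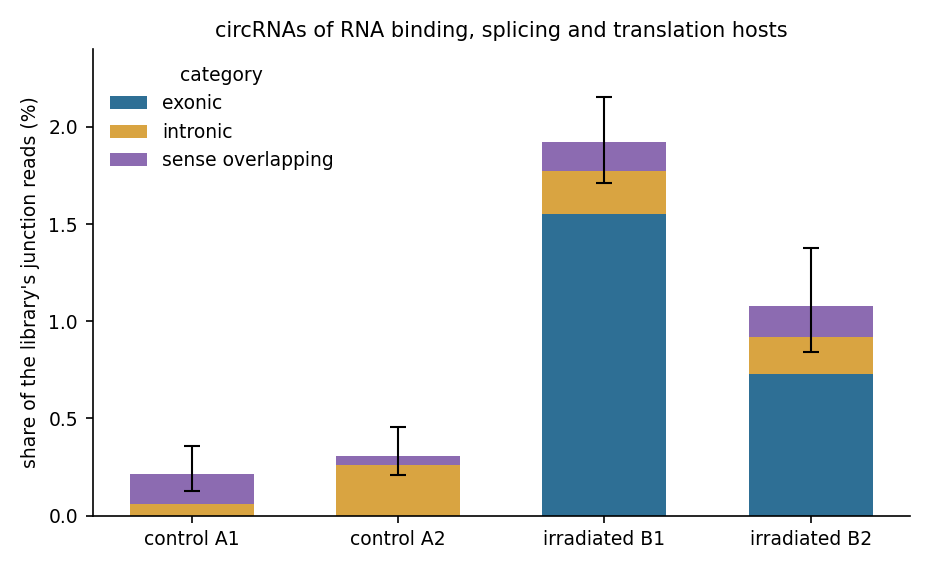
Share of each library's junction reads (%, linear axis) taken by circRNAs of the RNA binding, splicing and translation hosts, stacked by category, with 95% Wilson intervals of the total. Control A1 and A2 reach 0.214% and 0.309% with no exonic part, and irradiated B1 and B2 reach 1.92% and 1.08%, mostly exonic.

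The makeup by category followed that of each library. No exonic circRNA of these hosts had a read in control exosomes, and 0 of 14 reads (A1) allows an exonic share of up to 21.4% and 0 of 25 (A2) of up to 12%. In irradiated exosomes the exonic share of their reads was 80.8% (75.8 to 84.9) in B1 and 67.7% (55.4 to 78.0) in B2. The other circRNAs of the 3 categories gave 0.0912%, 0.109%, 78.1% and 54.6% in A1, A2, B1 and B2. Circles already listed in circBase, a catalogue of circRNAs, took none of the control reads of these hosts, 82.5% (77.7 to 86.4) of those in B1 and 66.1% (53.7 to 76.7) in B2. Among the other circRNAs of the 3 categories the circBase share was 0.0912%, 0.109%, 76.6% and 51.0% in A1, A2, B1 and B2. Both shares of these hosts had the same smallest exact permutation p of 0.333.

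Among exonic reads the irradiated libraries lay close together. These hosts took 235 of 10068 exonic reads in B1, or 2.33% (2.06 to 2.65), and 42 of 2066 in B2, or 2.03% (1.51 to 2.74). Of intronic and sense overlapping reads they took 0.424% (0.253 to 0.711) in A1, 0.677% (0.459 to 0.998) in A2, 1.99% (1.54 to 2.58) in B1 and 1.18% (0.763 to 1.81) in B2. In these 2 categories the intervals of A2 and B2 overlapped. Exonic reads of all genes numbered 3 in A1 and 4 in A2, too few to compare the share of these hosts among exonic reads between groups.

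The 75 circRNAs were 47 exonic, 16 intronic and 12 sense overlapping, and 47 were in circBase. A control read was found for 10, an irradiated read for 65, and reads in both groups for none. By library, 4 (A1), 6 (A2), 57 (B1) and 20 (B2) of the 75 had a read. Of all 9405 circRNAs with a read, the counts were 2052, 2485, 3492 and 1861. Among circRNAs with at least 5 reads, 93.3% of the 30 of these hosts had no control read and 6.67% no irradiated read. Over all genes, 70.1% of the 1957 circRNAs with at least 5 reads had no control read and 28.3% no irradiated read. Reads in both groups were thus rare there as well. Of these 75, 63 were seen in 1 library only. The library counts over all genes add up to little more than 9405, so most circRNAs there were in 1 library as well. None was in both control libraries and 12 were in both irradiated libraries, against 115 and 323 of all 9405 circRNAs with a read. Both irradiated libraries lay above both control libraries for 16.0% of the 75. This pattern was shown by 3.33% of all circRNAs with a read and 5.44% of those in the same 3 categories. Among exonic circles it was 10 of 47 (21.3%) against 10.9% of all exonic circRNAs. The reverse pattern, both control above both irradiated, was found for none of them and for 1.11% of all circRNAs and 1.5% of those in the same categories. The largest count in any library was 34.

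**Figure D2:**
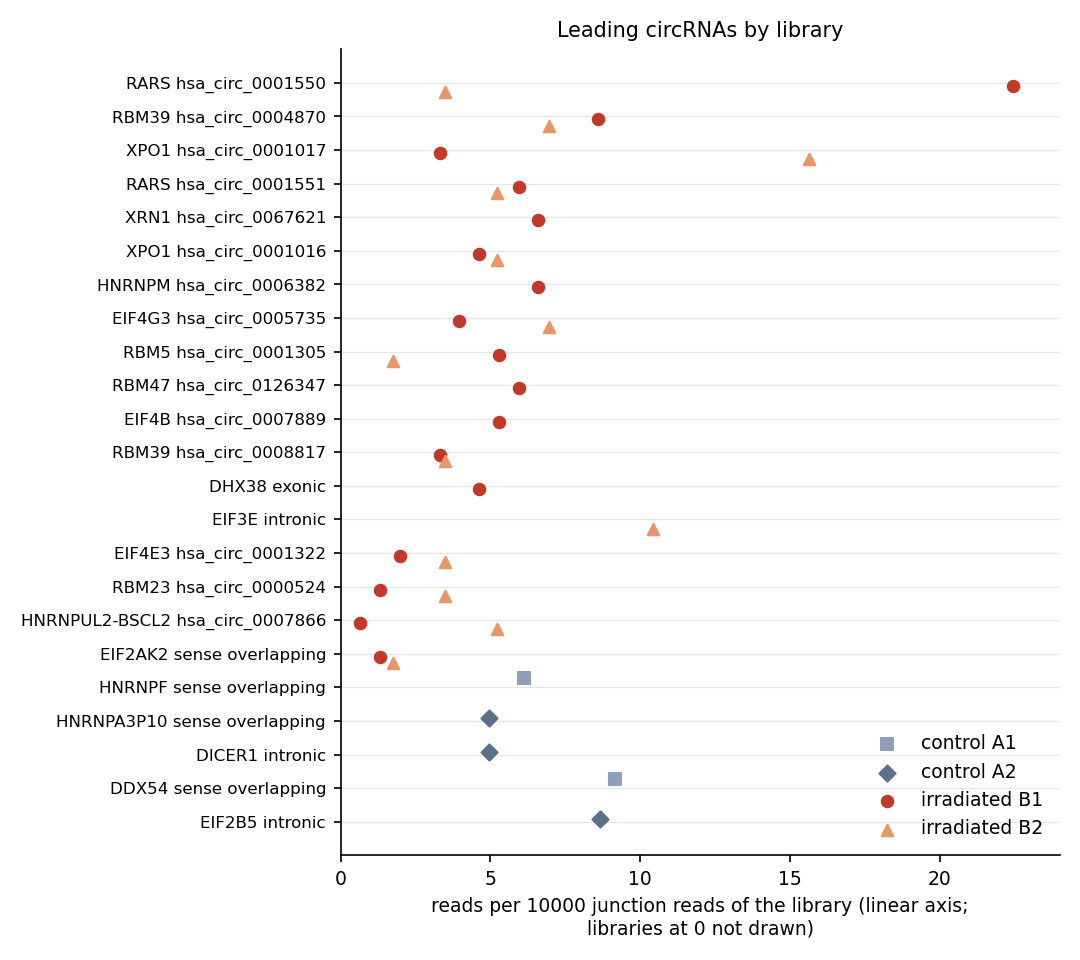
Junction reads per 10000 junction reads of the library (linear axis) for the named circRNAs, 1 symbol per library. RARS hsa_circ_0001550 is farthest to the right in B1 (22.4), XPO1 hsa_circ_0001017 is the highest in B2 (15.6), and no circRNA has symbols of both groups.

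The tRNA synthetases held the largest count. RARS loads tRNA with arginine and IARS with isoleucine, and together 3 exonic circles had 0 reads in control and 45 (B1) and 5 (B2) in irradiated exosomes. RARS hsa_circ_0001550 had 0, 0, 34 and 2 reads (A1, A2, B1, B2), or 22.4 per 10000 junction reads in B1 and 3.47 in B2. RARS hsa_circ_0001551 had 0, 0, 9 and 3 reads, or 5.94 and 5.21 per 10000. Per 10000 reads the longer RARS circle was thus about level between the irradiated libraries, while the shorter one was high in B1. In B2 this rests on 3 and 2 reads, too few to show that the 2 circles differ. With control set to 3 counts, the ratio of irradiated to control per total group reads was 8.40 for hsa_circ_0001550 and 2.801 for hsa_circ_0001551. Such ratios pool both libraries of a group and take no account of the spread between them. The IARS circle, exons 13 to 20 of 34, had 2 reads in B1.

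The RBM, HNRNP and MBNL1 hosts, set together by name as splicing regulators, were the largest group. It held 26 circRNAs of 15 hosts, with 4, 7, 108 and 17 reads per library (A1, A2, B1, B2). Among the hosts were the pseudogenes HNRNPA3P10 (4 reads, in A2) and HNRNPKP3 (4 reads, in B1). The HNRNPKP3 circRNA overlapped no canonical GENCODE transcript on its strand. RBM39, a splicing factor related to U2AF, had 5 circRNAs, the most of these hosts, with 0, 0, 29 and 9 reads. Its circle hsa_circ_0004870 had 0, 0, 13 and 4 reads, or 8.58 and 6.95 per 10000 in B1 and B2. With control set to 3 counts, its ratio of irradiated to control was 3.97. A shorter circle that starts at the same exon 7 and ends with exon 10 had 4 reads in B1. RBM39 hsa_circ_0008817 had 5 and 2 reads in B1 and B2. The remaining RBM39 circRNAs lay in introns 2 and 3, with 3 reads in B2 and 7 reads in B1.

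RBM5, which controls splicing of apoptosis genes, had hsa_circ_0001305 (exons 13 and 14 of 25, 151 nt) with 8 and 1 reads in B1 and B2. RBM23, a relative of RBM39, had hsa_circ_0000524 (exons 2 and 3 of 14, 189 nt) with 2 and 2 reads. HNRNPUL2-BSCL2 is a readthrough name, and its exonic hsa_circ_0007866 covers exons 2 to 4 of HNRNPUL2, with 1 and 3 reads. In B1 alone, HNRNPM hsa_circ_0006382 (exons 2 to 5 of 16) had 10 reads and RBM47 hsa_circ_0126347, which lies in intron 1 of a cofactor of APOBEC1 RNA editing, had 9. RBM33 had 3 circRNAs with 14 reads in B1 and none in B2.

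Export and decay hosts had 0 control reads and 31 and 15 reads in B1 and B2. XPO1, the receptor for proteins with a nuclear export signal, gave most of them. Its circle hsa_circ_0001017 had 0, 0, 5 and 9 reads (A1, A2, B1, B2), or 3.30 and 15.6 per 10000, so it was higher in the shallower B2. XPO1 hsa_circ_0001016 had 7 and 3 reads, or 4.62 and 5.21 per 10000. With control set to 3 counts, the ratio of irradiated to control was 3.27 for hsa_circ_0001017 and 2.33 for hsa_circ_0001016. XRN1, the cytoplasmic 5′ to 3′ exonuclease, had hsa_circ_0067621 with 10 reads in B1 and 0 in B2, a circle of exon 2 alone (233 nt). XPO5, which exports pre-miRNAs, and XPO7 had 4 reads and 6 reads in irradiated exosomes.

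Translation initiation factors had 14 circRNAs of 11 hosts, with 0, 7, 49 and 12 reads. EIF4G3, a scaffold that links the cap to the ribosome, had hsa_circ_0005735 with 6 and 4 reads, or 3.96 and 6.95 per 10000 in B1 and B2. This circle holds exons 4 and 5 (137 nt) of a transcript with 15 exons. EIF4E3, a cap-binding protein, had hsa_circ_0001322 with 3 and 2 reads, whose ends lie in exon 2 and in the last exon. EIF4B, which helps the helicase EIF4A, had 8 reads of hsa_circ_0007889 and 4 of another circle, all in B1. EIF2A and EIF2S2, the latter a subunit of EIF2, each had an exonic circle with 6 reads in B1. The intronic EIF3E circRNA had 6 reads, all in B2, and the EIF2AK2 circRNA, which lies in the 3′ UTR of this kinase of EIF2, had 2 and 1.

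The helicases had 12 circRNAs of 9 hosts with 8, 0, 34 and 6 reads, none of them in both irradiated libraries. DDX6, which represses mRNAs and promotes decapping, had 3 exonic circles with 12 reads in B1. DHX38, a helicase of the later splicing step, had an exonic circle outside circBase (exons 10 and 11 of 27) with 7. In deadenylation and repression, 8 circRNAs had 2, 3, 20 and 3 reads. CNOT6, a deadenylase of CCR4-NOT, had 7 and 5 reads for 2 circles in B1. For 3′ end processing, CSTF2T had 3 reads in B2 and CPSF3 had 2 reads in B1.

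**Figure D3:**
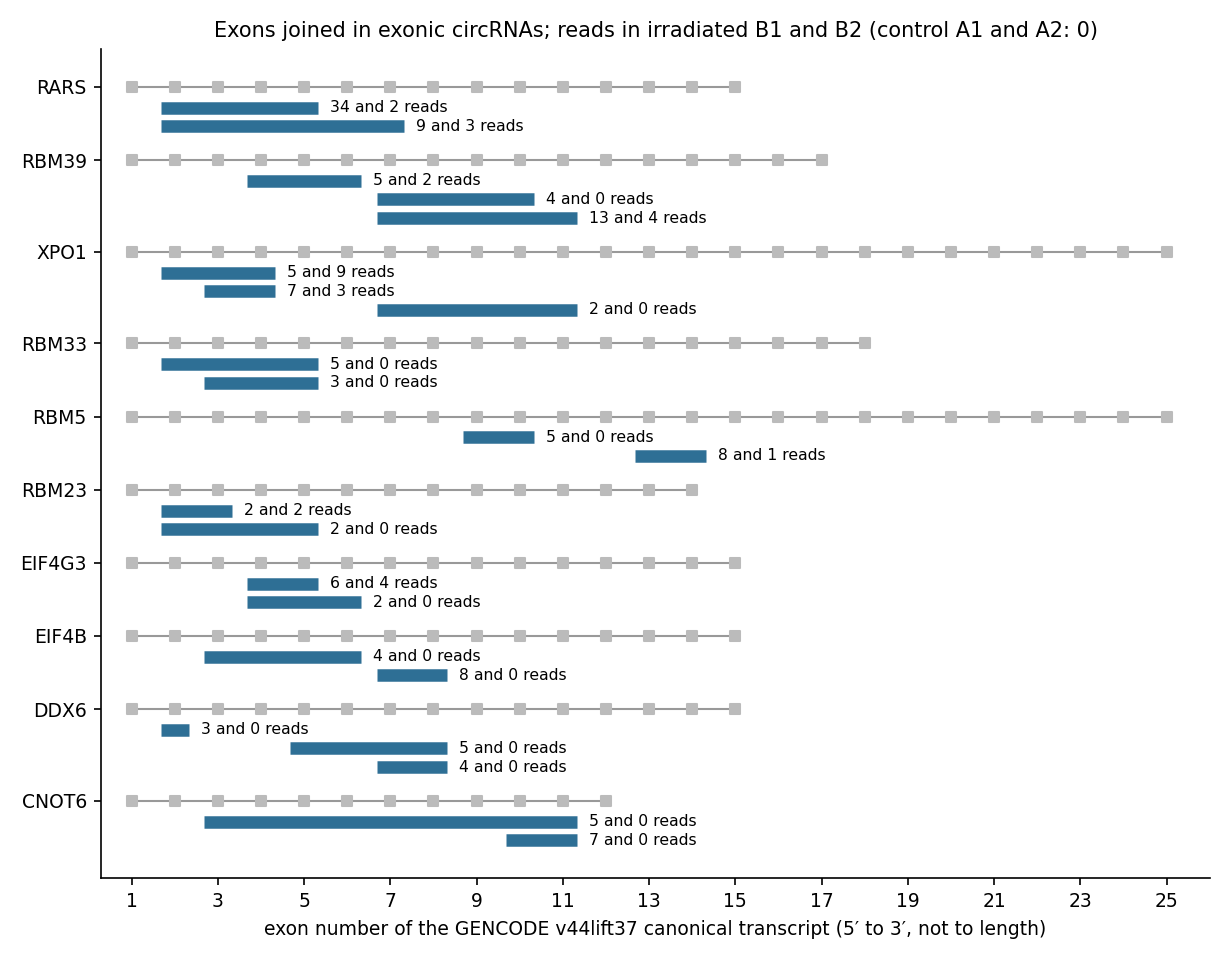
Exons joined in the exonic circRNAs of 10 hosts (bars) along the numbered exons of a GENCODE transcript (grey squares, not to length), with reads in B1 and B2. The transcript was the one that fits the most circles of the host, and the canonical one was preferred only among equals. The axis label calls it canonical, which need not hold for each host. The RARS circles share exon 2, the RBM39 circles with 13 and 4 and with 4 and 0 reads share exon 7, and the leading XPO1 circles share exon 4.

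The control exosomes held other circRNAs of other hosts, all outside circBase. In A1, the DDX54 circRNA had 6 reads, HNRNPF 4, and CNOT8 and DDX10 2 each. In A2, the EIF2B5 circRNA had 7 reads, DICER1, PRPF3 and HNRNPA3P10 had 4 each, and CNOT3 and HNRNPR 3 each. Each was at 0 in the other control library and in both irradiated libraries, so no control circle was repeated. DDX54, a nucleolar helicase, was placed in the 3′ UTR of its last exon, HNRNPF in the coding part of its last exon, and HNRNPA3P10 is a pseudogene. The circRNA listed under EIF2B5, a subunit of the exchange factor of EIF2, overlapped no canonical GENCODE transcript on its strand. The DICER1 (intron 8), PRPF3 (intron 7), HNRNPR (intron 4), CNOT8 (intron 3), CNOT3 (intron 1) and DDX10 (intron 13) circRNAs were intronic. With irradiated exosomes at 3 counts over the group, EIF2B5 was at least 3.33-fold and DDX54 at least 2.86-fold lower there.

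The test across all circRNAs set irradiated against control exosomes circle by circle. Of 30 circRNAs of these hosts that were tested, 28 had no control read and 2 (EIF2B5 and DDX54) no irradiated read. Of all 1957 tested, 70.1% had no control read and 28.3% no irradiated read. At the methods' threshold 3 of the 30 were higher and none lower, against 3.53% of all 1957 tested higher and 0.204% lower. That balance over all circRNAs, 69 higher and 4 lower, became 7 and 25 with no scaling factors, 21 and 16 with mapped reads as library sizes and 3 and 5 with DESeq2. These were RARS hsa_circ_0001550, XPO1 hsa_circ_0001017 and RBM39 hsa_circ_0004870, all with an edgeR adjusted p of 0.549. None of the 30 passed an adjusted p of 0.05 in edgeR, where 0.102% of all circRNAs tested did so higher, and DESeq2 called none of them at either threshold. Fitted log2 fold changes were 7.61, 6.97 and 6.79 for these 3, next to a median of 5.22 over the 30 and of 5.0 over all tested. With groups at 0 set to 3 counts the medians of log2 fold change per total reads were 0.60 over the 30 and 0.22 over all. Without irradiated B1, RARS hsa_circ_0001550 and RBM39 hsa_circ_0004870 fell below 5 reads and were not tested, and XPO1 hsa_circ_0001017 had an adjusted p of 0.000348 in edgeR. Without irradiated B2 the XPO1 circle was no longer called (adjusted p = 0.425), without control A1 the RARS circle alone of the 3 was, and without control A2 none of the 3 was.

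Summed per host gene, RARS had 0, 0, 43 and 5 reads, RBM39 0, 0, 29 and 9, and XPO1 0, 0, 14 and 12. With control set to 3 counts, their ratios of irradiated to control were 11.2, 8.87 and 6.07. These 3 of 27 hosts tested (11.1%) were higher at the methods' threshold and none was lower, against 9.44% and 1.13% of all 1504 hosts tested. RARS (adjusted p = 0.0418) and RBM39 (adjusted p = 0.0495) passed edgeR's adjusted threshold, as did 1.2% of all hosts tested higher, and XPO1 (adjusted p = 0.0979) did not. None was lower at the adjusted threshold, where 0.332% of all hosts were. The share of hosts called at the methods' threshold was thus near that of all hosts. Fitted log2 changes were 7.16, 7.02 and 6.75, with a median of 4.78 over the 27 and 4.30 over all hosts. DESeq2 called none of the 3 at either threshold. The adjusted calls of RARS and RBM39 were also lost in edgeR with RLE factors, no scaling factors, mapped reads as library sizes, a minimum of 1 read, the likelihood ratio test and the newer quasi-likelihood form. Over all hosts, 142 higher and 17 lower became 58 and 37 with no scaling factors, 15 and 6 with mapped reads, 8 and 3 with RLE factors and 9 and 6 with DESeq2. Without B1 no host of the group was called, without B2 XPO1 was not, and neither adjusted call was kept when any of the 4 libraries was left out.

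The other hosts gave no call. EIF4G3 (0, 0, 8 and 4 reads), RBM5 (0, 0, 13 and 1), RBM33 (0, 0, 14 and 0) and HNRNPUL2-BSCL2 (0, 0, 7 and 3) followed in edgeR's order, each with an adjusted p of 0.477. Of 52 hosts with a read, 12 (23.1%) lay higher in both irradiated than in both control libraries, against 11.9% of all hosts, and none lay lower in both, as 1.88% of all hosts did. A list of 128 other genes of RNA binding, decay and translation gave 48 hosts and 74 circRNAs with reads, 4, 18, 184 and 57 in A1, A2, B1 and B2. None of its 18 tested circRNAs was called, and 1 of its 22 tested hosts was: CAPRIN1, a stress granule protein, with 0, 0, 19 and 2 reads (edgeR adjusted p = 0.362). Beyond it, RBPMS had 0, 0, 5 and 6 reads and the m6A writer METTL3 0, 0, 10 and 0.

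The exonic circles carried the marks of splicing, as exonic circRNAs of all genes did. In all 47, AG preceded the circle and GT followed it on the listed strand, as in all 2520 other exonic circRNAs. Both ends were annotated exon ends for the 47 and for 99.1% of the others, so neither mark sets these 47 apart. They joined 1 exon (2 circles), 2 to 4 exons (32) or more (13), had a median length of 434 nt against 452 nt, and 38 lay in coding sequence alone. Exon 2 was the start of 14 (29.8%) against 27.7% of the others, and none started at exon 1. The introns beside them were shorter, with medians of 4156 nt upstream and 2925 nt downstream against 7828 nt and 6778 nt, a difference that was described over circles and not tested. XPO1 hsa_circ_0001017 had 3658 nt upstream and 20300 nt downstream, while RARS hsa_circ_0001550 had 2058 nt and 664 nt.

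**Figure D4:**
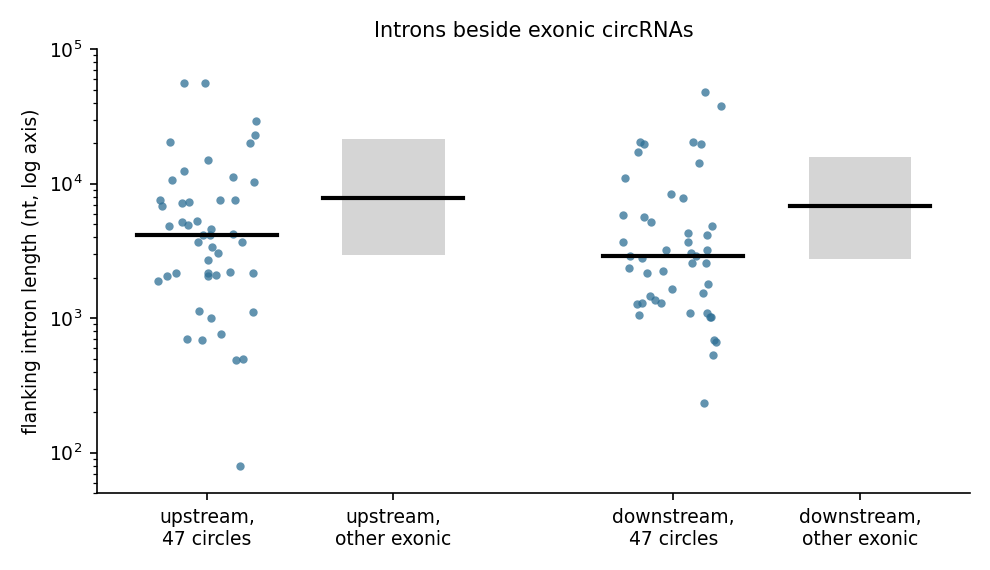
Length (nt, log axis) of the introns beside the 47 exonic circRNAs (points, black line at the median) and the quartiles and median of other exonic circRNAs (grey box). The medians are 4156 nt against 7828 nt upstream and 2925 nt against 6778 nt downstream.

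Inverted sequence matches in flanking introns are known to help circle formation by pairing. A perfect inverted match of at least 20 nt within 1000 nt of both ends was present for 13 of the 47 exonic circles (27.7%) and for 20.7% of the other exonic circRNAs. Both flanking introns were over 1000 nt for 38 of the 47 circles (80.9%) and for 88.8% of the others. Some windows thus reached past the intron, as for RBM5 hsa_circ_0001305, whose upstream intron held 500 nt. RBM5 hsa_circ_0001305 had such a match of 32 nt and CNOT6 of 37 and 32 nt, whereas both RARS circles (18 and 15 nt), XPO1 hsa_circ_0001017 (16 nt) and XPO1 hsa_circ_0001016 (17 nt) had none of 20 nt. The match of RBM39 hsa_circ_0004870, 20 nt, was a run of A against a run of T.

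The 22 intronic and sense overlapping circRNAs outside circBase differed from the exonic circles in their ends, as such circRNAs of other hosts did. AG and GT stood on the listed strand for 11 and on the opposite strand for 11. Among the other 2461 nuclear circRNAs of this kind the shares were 56.4% and 43.6%. No circle of the 22 had both ends at exon ends of the same GENCODE transcript, and 0.284% of the others did. The RBM39 circRNA of intron 2 had both ends at annotated exon ends, of different transcripts. For the 10 control circles AG and GT stood on the listed strand for 7 and on the opposite strand for 3. Other control circRNAs of the 3 categories gave 55.8% and 44.1%. A stretch of identical bases at both ends makes the junction position ambiguous, and it had a median of 6.5 bases in control circles and 2 in exonic ones, with 5 bases among other control circRNAs of the 3 categories. The end windows of the control CNOT8 and DICER1 circRNAs show this, with 10 bases outside and 10 inside the circle and the splice dinucleotide (or its reverse complement) in capitals.
CNOT8 start, chr5:154248762-154249266, plus strand: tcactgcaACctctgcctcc
CNOT8 end: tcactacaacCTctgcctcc
DICER1 start, chr14:95584668-95585042, minus strand: cttatatcAGgtgtggaacc
DICER1 end: atgatatcagGTgataggat
The CNOT8 ends share 17 bases and carry the dinucleotides of the opposite strand, and the DICER1 ends share 10. PRPF3 shared 8 bases, HNRNPR 13, EIF2B5 7 and HNRNPA3P10 6, while CNOT3, DDX10 and HNRNPF shared none. In irradiated exosomes the intronic RBM39 circRNA with 7 reads shared 17 bases.

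**Figure D5:**
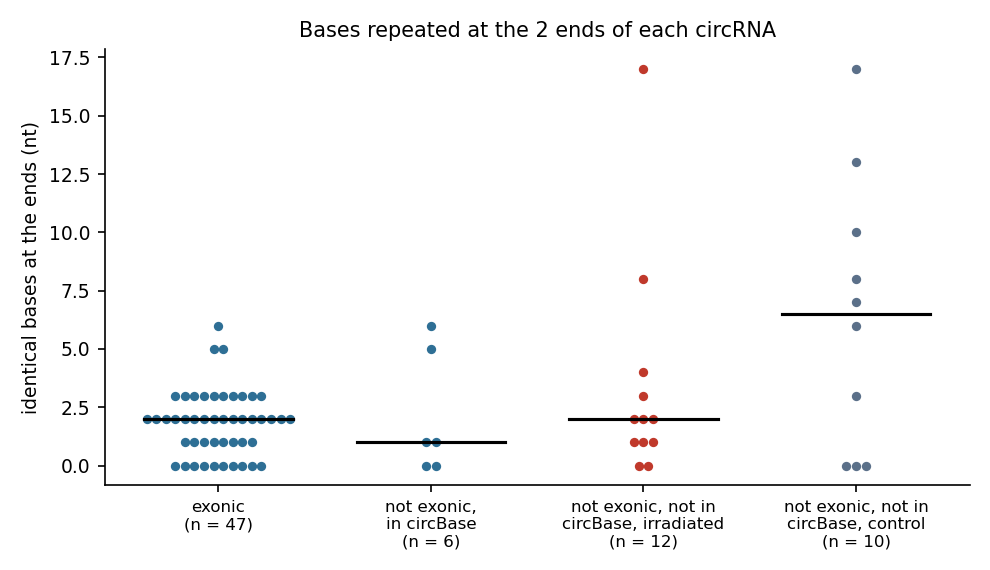
Identical bases at both ends (nt) of each of the 75 circRNAs by class, with a line at the median. Exonic circles reach at most 6 bases with a median of 2, and control circles reach 17 with a median of 6.5.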

How the data were processed

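Exosomal total RNA depleted of rRNA was sequenced in 4 libraries, control A1 and A2 and irradiated B1 and B2. Per the labels, the authors trimmed reads with cutadapt 1.9.3 and aligned them to hg19 with STAR 2.5.1b, and junctions were called with DCC per the study's methods. The deposited count values are back-splice junction reads per circRNA and library, with no normalization. Deposited log2 CPM columns and 4 columns of per-library values whose names match no sample title were not used. The study's supplementary count table names its second irradiated column differently from the deposited column used here as B2, which carries the sample's name, and its summary lists another number of circRNAs for B2 than this column holds (1861), so the B2 values may come from another library than the one the study analysed. Mapped reads per library, used in an alternative, came from that summary, so the same doubt holds for B2 there.

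circRNAs, and reads summed per host gene, with a total of at least 5 reads were tested with edgeR 4.0.16 in R 4.3.3 (TMM, quasi-likelihood F test, Benjamini-Hochberg over all features tested), and the script was tested on simulated data. The methods' call took a fold change over 2 and p under 0.05. Shares carried Wilson intervals at 95%, which cover counting error only, and exact permutation tests over libraries used scipy 1.17.1. A group at 0 was set to 3 counts over the group, and the ratios so formed carry no spread between libraries. Sequences came from GRCh37, in which all 2404 nuclear circBase circRNAs of the categories used had AG before and GT after the circle, and exons came from GENCODE release 44 lifted to GRCh37. Some sequences are not reported here. Alternatives covered scaling, library size, low count filters, tests, replicate block and leaving out libraries. Members and gene lists were chosen with earlier results of these data known. circRNAs named were those with a read in both libraries of a group, the 12 with the most reads, the 8 with the smallest p each way, the 5 with the most control reads, the leading host of each role group and hosts with at least 4 circRNAs, and a few others were named after their values were seen.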

Additional observations from a re-analysis of the deposited data

How the results depend on the processing

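The number of these circRNAs called higher, 3, became 1 with RLE factors, 0 with no scaling factors, 1 with mapped reads as library sizes (for B2 possibly those of another library), 6 with a minimum of 10 reads, 1 with a minimum of 1 read, 6 with edgeR's newer quasi-likelihood form and 0 with DESeq2, and ranged from 0 to 8 when a library was left out (2 without B1, 8 without B2). At adjusted p it was 0, and 3 with a minimum of 10 reads, 1 with the replicate block and 0 to 4 with a library left out. The number of hosts called higher, 3, became 1 with RLE factors, 1 with mapped reads, 6 with the newer form, 0 with DESeq2 and 0 with the replicate block, and 0 to 3 with a library left out. At adjusted p the 2 hosts, RARS and RBM39, became 0 with RLE factors, no scaling factors, mapped reads, a minimum of 1 read, the likelihood ratio test, the newer form, DESeq2 and the replicate block, and 0 with any library left out. The causes were not tested. A group left with 1 library was assumed to vary like the other. The filter by expression kept 21 circRNAs and 14 hosts, none of them of these hosts.

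Over all circRNAs tested, the fitted log2 fold change had a median of 5.0, and 5.82 with RLE factors and 3.69 with no scaling factors, so fitted sizes depend on the scaling. Of all circRNAs 69 were called higher and 4 lower, which became 14 and 0 with RLE factors, 7 and 25 with no scaling factors, 21 and 16 with mapped reads and 3 and 5 with DESeq2, and 5 to 367 higher with a library left out. Each named circRNA and host had either no control read or no irradiated read, so its fitted direction could not turn under any alternative. Of their alternative values, 32 lost an unadjusted call and 18 gained one. The share of reads stayed higher in irradiated exosomes under each alternative, and its difference, 1.24 percentage points, was 0.816 without B1 and 1.66 without B2. The exonic and circBase shares of these hosts had no control read, so their direction could not turn either. Replicate numbers are shared by the groups, but same-numbered libraries did not deviate together (correlation 0.0054 over circRNAs and 0.010 over hosts), so they were not read as pairs. With the replicate block, 73 of all circRNAs were called higher in place of 69, and 0 hosts in place of 142. With 34 reads at most per circle, counts of 1 to 3 reads cannot show a difference between libraries.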

Other observations

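Back-splice junctions on the strand opposite to these hosts were recorded as well. Of 28 such antisense circRNAs, 19 had a read, and none was in circBase. They had 7 reads in A1, 13 in A2, 36 in B1 and 9 in B2, or 0.107% (95% Wilson interval 0.0518 to 0.221), 0.161% (0.0939 to 0.275), 0.238% (0.172 to 0.329) and 0.156% (0.0823 to 0.297) of junction reads, and the intervals of all 4 libraries overlapped. Of antisense reads alone they took 0.501% (0.243 to 1.03), 0.676% (0.395 to 1.15), 2.58% (1.87 to 3.55) and 0.842% (0.444 to 1.59), where the interval of B1 lay above those of the other 3 libraries. The leading ones were at HNRNPM and DHX16, with 7 reads each in B1, and DDX3X with 6 in B1.

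At 3 places a circRNA was listed on both strands with the same ends. HNRNPM hsa_circ_0006382 had 10 reads on the plus strand and 7 on the minus strand, all in B1. EIF4E3 hsa_circ_0001322 had 3 (B1) and 2 (B2) reads on the minus strand and 2 (B1) on the plus strand. In A1 the HNRNPF circRNA had 4 reads on the minus strand and 2 on the plus strand, the latter listed under the older spelling HNRPF and left out by the name rule. These places and the antisense circRNAs were chosen after their values were seen.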
